A study of Homo sapiens with 4 samples.

Results

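The imprinted domain of H19, IGF2 and KCNQ1OT1 lies on the short arm of chromosome 11. It was taken here as the 1.05 Mb from 1.9 to 2.95 Mb of chromosome 11 (hg38), with the genes H19, IGF2, INS, KCNQ1OT1, CDKN1C and PHLDA2 as members (6 of 62062 gene identifiers of GENCODE release 44 on chromosomes 1 to 22 and X). Its regions are the peaks with a summit in the window, which were 45 of 97364 SMC1 peaks and 45 of 63555 CTCF peaks. They also include the loops with at least 1 anchor in the window, which were 19 of 28012 in the loop list labelled SMC1 and 38 of 80487 in the list labelled CTCF. The rule for genes and window uses no measured value, but members and lists were chosen with earlier results of these data known.

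All libraries came from the HG00731 lymphoblastoid cell line (LCL), an established line of B-lymphocyte origin. Cohesin was captured through its subunit SMC1 after dual cross-linking (FA-EGS HiChIP, 2 replicates) and the insulator protein CTCF after formaldehyde fixation alone (FA-HiChIP, 2 replicates). HiChIP joins DNA ends that lie close in the nucleus and enriches them for a protein, so each target gave 1 peak list and 1 loop list, both made from pooled replicates. Target and fixation cannot be told apart, the lists used here hold no value per replicate, the depth per replicate is not known from them, and no test between the lists was made.

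In an imprinted domain the copies of a gene inherited from the mother and the father behave differently. At H19 the control region upstream of the gene is methylated on the paternal chromosome, and on the maternal chromosome it is bound by CTCF, which keeps the enhancers beyond H19 away from IGF2, a growth factor gene. At the other end of the domain the promoter of the long non-coding RNA KCNQ1OT1 lies inside KCNQ1 and is active on the paternal chromosome, where its transcription in antisense silences neighbours such as CDKN1C, a cell cycle inhibitor, and PHLDA2, a gene that limits placental growth. The lists do not separate the parental chromosomes.

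The number of loops in the list labelled SMC1 is the number that the study tabulates for CTCF, and the reverse, so each loop list is named by its label and results with the lists exchanged are given where they differ. Parts of the window also occur again in the reference. An unlocalized scaffold of chromosome 11 matched chr11:1944688-2044095 at 99.4% identity, a stretch of 99.4 kb with H19 and its control region. An alternate scaffold matched the chromosome from chr11:2767814 on in 5 blocks of 99.3% to 99.9% identity, which hold CDKN1C, SLC22A18 and PHLDA2. The peak lists name other alternate scaffolds (76 SMC1 and 78 CTCF peaks) and other unlocalized scaffolds (65 and 104 peaks), whereas the scaffolds with these 2 copies held 0 peaks in both lists. The authors kept reads above a minimum mapping quality, a score that falls where a read matches more than 1 place.

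The sequence of the H19 control region is shown first, since it is the textbook CTCF element of the domain. GENCODE places the canonical H19 start at chr11:2004552 on the minus strand, but 7 of 31 H19 transcripts share a start at chr11:1997842, more than any other start, and the stretch 1 to 7 kb upstream of that start (chr11:1998842-2004842) was added after the data were seen. A CTCF motif of 19 bp was learned from the strongest CTCF summits on even-numbered autosomes, and a site was called at a score of at least 10 bits. The stretch held 8 sites, all 8 on the minus strand. They are printed from hg38 in the direction of the motif, 5′ to 3′, with the motif site in capitals and 10 bases on either side.
chr11:1999043-1999061, 11.4 bits: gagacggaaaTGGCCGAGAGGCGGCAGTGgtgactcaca
chr11:1999966-1999984, 10.7 bits: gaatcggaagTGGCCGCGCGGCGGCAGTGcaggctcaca
chr11:2000778-2000796, 11.7 bits: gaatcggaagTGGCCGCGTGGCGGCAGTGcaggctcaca
chr11:2001184-2001202, 11 bits: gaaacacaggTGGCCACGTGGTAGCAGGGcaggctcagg
chr11:2002211-2002229, 10.7 bits: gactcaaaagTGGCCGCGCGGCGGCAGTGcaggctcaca
chr11:2002612-2002630, 10.7 bits: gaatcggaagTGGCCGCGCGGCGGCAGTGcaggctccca
chr11:2003017-2003035, 10.7 bits: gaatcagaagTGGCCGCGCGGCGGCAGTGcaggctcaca
chr11:2003203-2003221, 10.6 bits: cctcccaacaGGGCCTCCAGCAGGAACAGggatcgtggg

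The sites were repeats of nearly the same word. The same 19 bases stood at 4 of the 8 sites, and 6 of 8 lay within 2 mismatches of them, while the farthest site differed at 9 positions. These 19 bases occurred 4 times on chromosomes 1 to 22 and X, all in this stretch, and 4 times on scaffolds of chromosome 11. Each of the 8 printed stretches of 39 bases had an identical copy on a scaffold. Motif matches of this strength are common, since 71.8% of 22406 consecutive 6 kb windows of chromosome 11 held at least 1 site and 6.84% held 8 or more. The stretch 1 to 7 kb upstream of the canonical H19 start held 12 sites, on both strands. Of these 3 reached 13 bits, against 0 of the 8 printed sites.

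No SMC1 peak, no CTCF peak and no loop anchor of either list lay in the H19 control region. The count was 0 in chr11:1998842-2004842, 0 in the stretch 1 to 7 kb upstream of the canonical start (chr11:2005552-2011552) and 0 within 10 kb upstream of it (chr11:2004552-2014552). Around the region the SMC1 list was empty over 231.6 kb, from the peak chr11:1918521-1918902 next to TNNT3 to the peak chr11:2150489-2152238 at IGF2. The CTCF list was empty over 155.0 kb, up to the peak chr11:2074021-2074565 (7.62-fold enrichment over the local background, −log10 q-value 28.5), which lay 69.2 kb beyond the control region and carried a minus-strand site of 14.9 bits. Both empty stretches ran past the 99.4 kb with a second copy (chr11:1944688-2044095) on either side. Windows of 100 bases with an identical copy on a chromosome 11 scaffold made up 98.3% of the control region and 100% of the stretches upstream of the canonical start. The DpnII cut site GATC, at which HiChIP fragments are joined, occurred 28 times in the control region, against 14.7 per 6 kb on chromosome 11. The part of the second copy in this count of 0 was not tested, and the count does not show that CTCF or cohesin is absent from the control region.

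**Figure D1:**
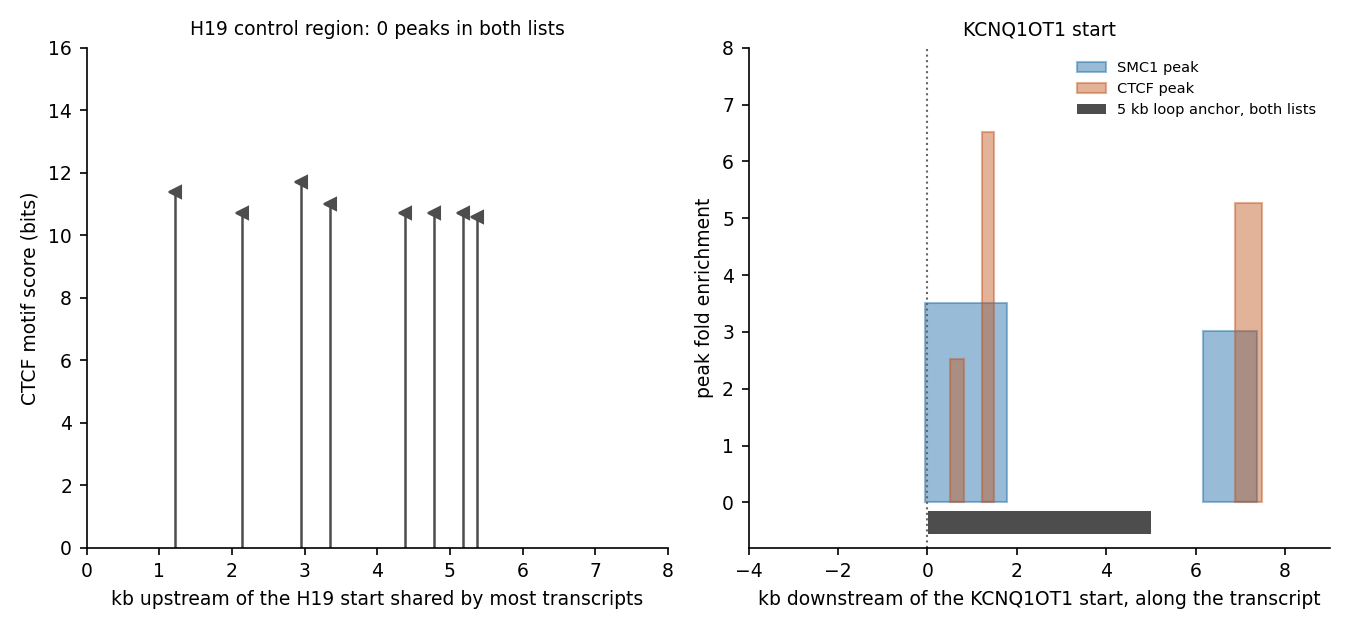
CTCF motif sites of the H19 control region (left, score in bits against kb upstream of the start shared by most transcripts, arrowheads show the minus strand) and peaks around the KCNQ1OT1 start (right, fold enrichment against kb along the transcript, boxes span the called intervals). The left region holds 8 sites and 0 peaks, and the right one an SMC1 peak across the start with 2 CTCF peaks inside it and a loop anchor of 5 kb beneath.

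Peaks were few in stretches with a second copy over the whole genome as well. In all stretches of at least 10 kb and 99% identity to a scaffold of the same chromosome there were 0.971 SMC1 peaks per Mb, against 33.6 outside them, and 1.0 CTCF peaks per Mb, against 21.8. Loop anchors were centred in such stretches 0 times in both lists, against 19.4 loop ends per Mb outside them under the SMC1 label and 55.9 under the CTCF label. Within the domain the SMC1 density was 14.6 peaks per Mb inside such stretches and 52.8 outside. The CTCF densities were 18.3 and 51.5 peaks per Mb. The domain thus held 4 of the 29 SMC1 peaks and 5 of the 30 CTCF peaks called in such stretches anywhere, all of them near CDKN1C and PHLDA2 and none near H19.

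**Figure D2:**
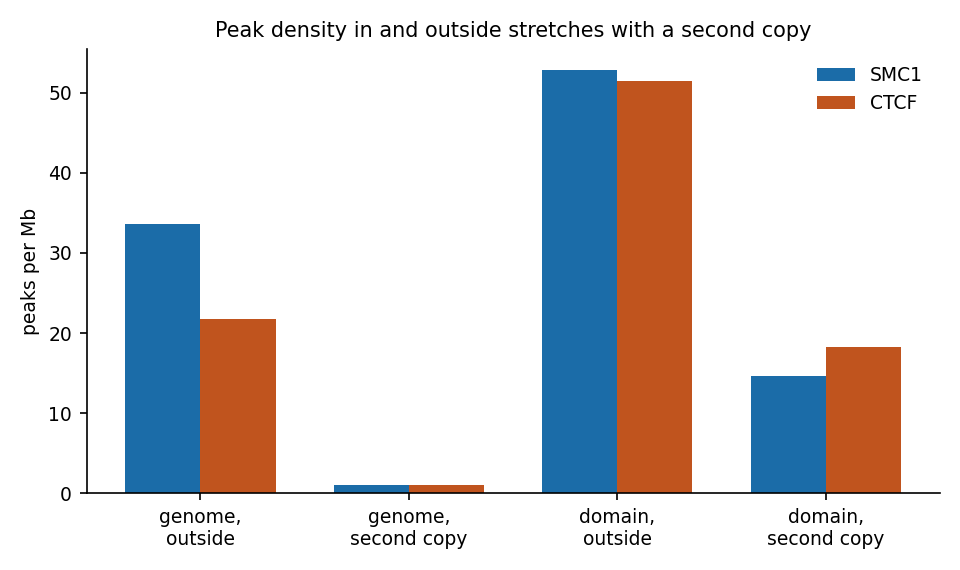
Peaks per Mb (bars, from 0) of SMC1 and CTCF inside and outside stretches with a second copy in the reference, for chromosomes 1 to 22 and X and for the domain. Genome densities drop from 33.6 and 21.8 to 0.971 and 1.0 per Mb, and those of the domain from 52.8 and 51.5 to 14.6 and 18.3.

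At the KCNQ1OT1 start (chr11:2700003, minus strand) both proteins were found. Within 3 kb of it 0.0% of 100-base windows had an identical copy on a chromosome 11 scaffold. Copies elsewhere in the genome were not sought. An SMC1 peak at chr11:2698223-2700059 covered the start (3.5-fold enrichment, −log10 q-value 22.4). CTCF peaks lay inside that interval at chr11:2698515-2698773 (6.51-fold, −log10 q-value 36.8) and at chr11:2699188-2699491 (2.53-fold, −log10 q-value 3.81). The stronger CTCF peak ranked above 62.8% of the CTCF list by q-value and the weaker above 7.0%, so the second is close to the limit of the list. The stronger peak held a single motif site of 10.1 bits on the minus strand, the direction of KCNQ1OT1 transcription. Its reference sequence on the plus strand begins with the DpnII cut site, and the capitals mark the motif site.
chr11:2698515-2698773, plus strand: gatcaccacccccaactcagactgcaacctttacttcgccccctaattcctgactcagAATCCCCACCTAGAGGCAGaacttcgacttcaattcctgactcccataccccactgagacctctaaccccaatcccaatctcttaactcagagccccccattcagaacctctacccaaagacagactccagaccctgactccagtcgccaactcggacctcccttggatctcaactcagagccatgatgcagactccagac

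A loop joined the KCNQ1OT1 start to an intron of KCNQ1 in both lists. It ran over 165 kb from chr11:2530001-2535000 to chr11:2695001-2700000. Under the SMC1 label it held 21 read pairs, 3.42 times the number expected by the regression model of the loop caller. Under the CTCF label it held 32, 3.63 times the expected number. The right bin ends just before the canonical start, contains the other annotated KCNQ1OT1 starts, and holds both CTCF peaks and the greater part of the SMC1 peak. Along the body of KCNQ1OT1 there were 6 SMC1 peaks and 4 CTCF peaks, counting the overlapping peaks at the start. Apart from those, only the pair of peaks near chr11:2692529-2693836 overlapped between the proteins (SMC1 3.02-fold, CTCF 5.26-fold).

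IGF2, the growth factor gene, has a canonical start at chr11:2139389 and 10 annotated starts in all. Its SMC1 peak at chr11:2150489-2152238 (6.83-fold, −log10 q-value 169.0) had its summit 11.96 kb upstream of the canonical start, in an intron of the read-through gene INS-IGF2. An edge of the peak came within 1 kb of another IGF2 start, while the summit lay 1744 bp from the nearest start of any gene. This peak was the third most significant SMC1 peak of the domain and ranked above 97.6% of the SMC1 list. A CTCF peak overlapped it at chr11:2150946-2152328 (7.57-fold, −log10 q-value 120.0). Both peaks held a minus-strand site of 15.7 bits, printed here because it stands at an anchor of the only loop that spanned the H19 control region.
chr11:2151601-2151619, minus strand: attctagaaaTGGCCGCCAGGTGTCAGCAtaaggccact

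That anchor, chr11:2150001-2155000, belonged to a loop of 315 kb from a bin with the starts of SYT8 and TNNI2, outside the window at chr11:1835001-1840000. It held 29 read pairs, 4.28 times the expected number, was listed under the CTCF label and had no match in the list labelled SMC1. The loop spanned H19 and its control region, and its anchors carried a plus-strand and a minus-strand best site, the convergent arrangement. A second CTCF peak of IGF2, chr11:2143874-2144137 (4.66-fold, −log10 q-value 11), was the nearest to the canonical start at 4.51 kb upstream and overlapped no SMC1 peak. INS, the insulin gene, had no peak of either protein within 1 kb of its starts. The nearest peaks had their summits 5.08 kb (SMC1) and 5.1 kb (CTCF) upstream of it. They lay inside TH, the gene of the rate-limiting enzyme of catecholamine synthesis, at chr11:2166077-2166609 (SMC1, 7.04-fold) and chr11:2166069-2166538 (CTCF, 12.9-fold, a plus-strand site of 18 bits).

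CDKN1C and PHLDA2 lie in the stretch with a second copy on the alternate scaffold, and peaks were called beside both genes. CDKN1C had an SMC1 peak 1.5 kb upstream of its start at chr11:2886920-2887623 (8.76-fold, −log10 q-value 53.3) and a CTCF peak at chr11:2887273-2887499 (3.49-fold, −log10 q-value 5.62). Neither came within 1 kb of a CDKN1C start. The peaks at chr11:2888532-2889029 (SMC1, 4.76-fold) and chr11:2888523-2889029 (CTCF, 3.93-fold) followed within the neighbouring SLC22A18AS and held a minus-strand site of 20.4 bits, the highest score of any peak in the domain. PHLDA2 had a CTCF peak 0.98 kb upstream of its start at chr11:2930318-2930605 (13.8-fold, −log10 q-value 74.6), the second highest CTCF fold enrichment of the domain, with no SMC1 peak on it. A weaker pair followed at chr11:2930996 (SMC1 2.57-fold, CTCF 4.08-fold). The 9 peaks of this stretch lay where the chromosome and the scaffold differ in places, since 24.2% to 75.1% of their 100-base windows had an identical copy. The share was 98.3% over the whole H19 control region. The 5 kb bins with these peaks had 69.5% to 81.9%. Downstream of H19 the bins of chr11:1945001-1995000 had 71.8% to 88.0% and no peak in either list. The part of such differences in the peak counts was not tested. The PHLDA2 peak is printed with its minus-strand site of 13.2 bits in capitals. It also opens with the DpnII cut site.
chr11:2930318-2930605, plus strand: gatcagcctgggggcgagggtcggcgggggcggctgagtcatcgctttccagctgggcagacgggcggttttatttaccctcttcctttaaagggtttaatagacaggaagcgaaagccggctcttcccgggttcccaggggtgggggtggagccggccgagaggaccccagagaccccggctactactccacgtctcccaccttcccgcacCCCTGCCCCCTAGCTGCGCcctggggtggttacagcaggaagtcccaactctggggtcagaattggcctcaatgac

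No loop ended at H19, INS, CDKN1C or PHLDA2, and the 5 kb bins that hold the canonical starts of all 6 members had 0 loops in both lists. For KCNQ1OT1 the anchor of the loop described above lies next to that bin and holds its other starts. No pair of members therefore shared a loop partner at their starts. A loop of 560 kb in the list labelled CTCF (chr11:2530001-2535000 to chr11:3090001-3095000, 16 read pairs, 3.75 times the expected number) passed over KCNQ1OT1, CDKN1C and PHLDA2 to the start of OSBPL5, and had no match in the list labelled SMC1.

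Across the domain the strongest peaks lay at TRPM5, KCNQ1, IGF2 and TSSC4. The median fold enrichment was 3.64 for the 45 SMC1 peaks and 3.32 over chromosomes 1 to 22 and X. For the 45 CTCF peaks it was 4.15 and 5.01. The strongest SMC1 peak by q-value lay in an intron of TRPM5, the gene of a taste-cell ion channel, at chr11:2419394-2421590 (8.91-fold, −log10 q-value 370.0, above 99.9% of the list). The CTCF list had a peak at exactly the same interval and summit (7.16-fold, −log10 q-value 122.0), the 1 such case in the domain. Genome-wide 551 SMC1 peaks shared their interval with a CTCF peak, and 17 of these also the summit. The next SMC1 peak, chr11:2532466-2533806 in an intron of KCNQ1 (6.76-fold, −log10 q-value 172.0), overlapped the strongest CTCF peak, chr11:2532518-2533165 (11.8-fold, −log10 q-value 278.0). The other leading CTCF peaks were chr11:2400142-2401220 beside TSSC4 (17-fold, −log10 q-value 256.0) and chr11:2428108-2428860 in TRPM5 (11.4-fold, −log10 q-value 161.0).

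**Figure D3:**
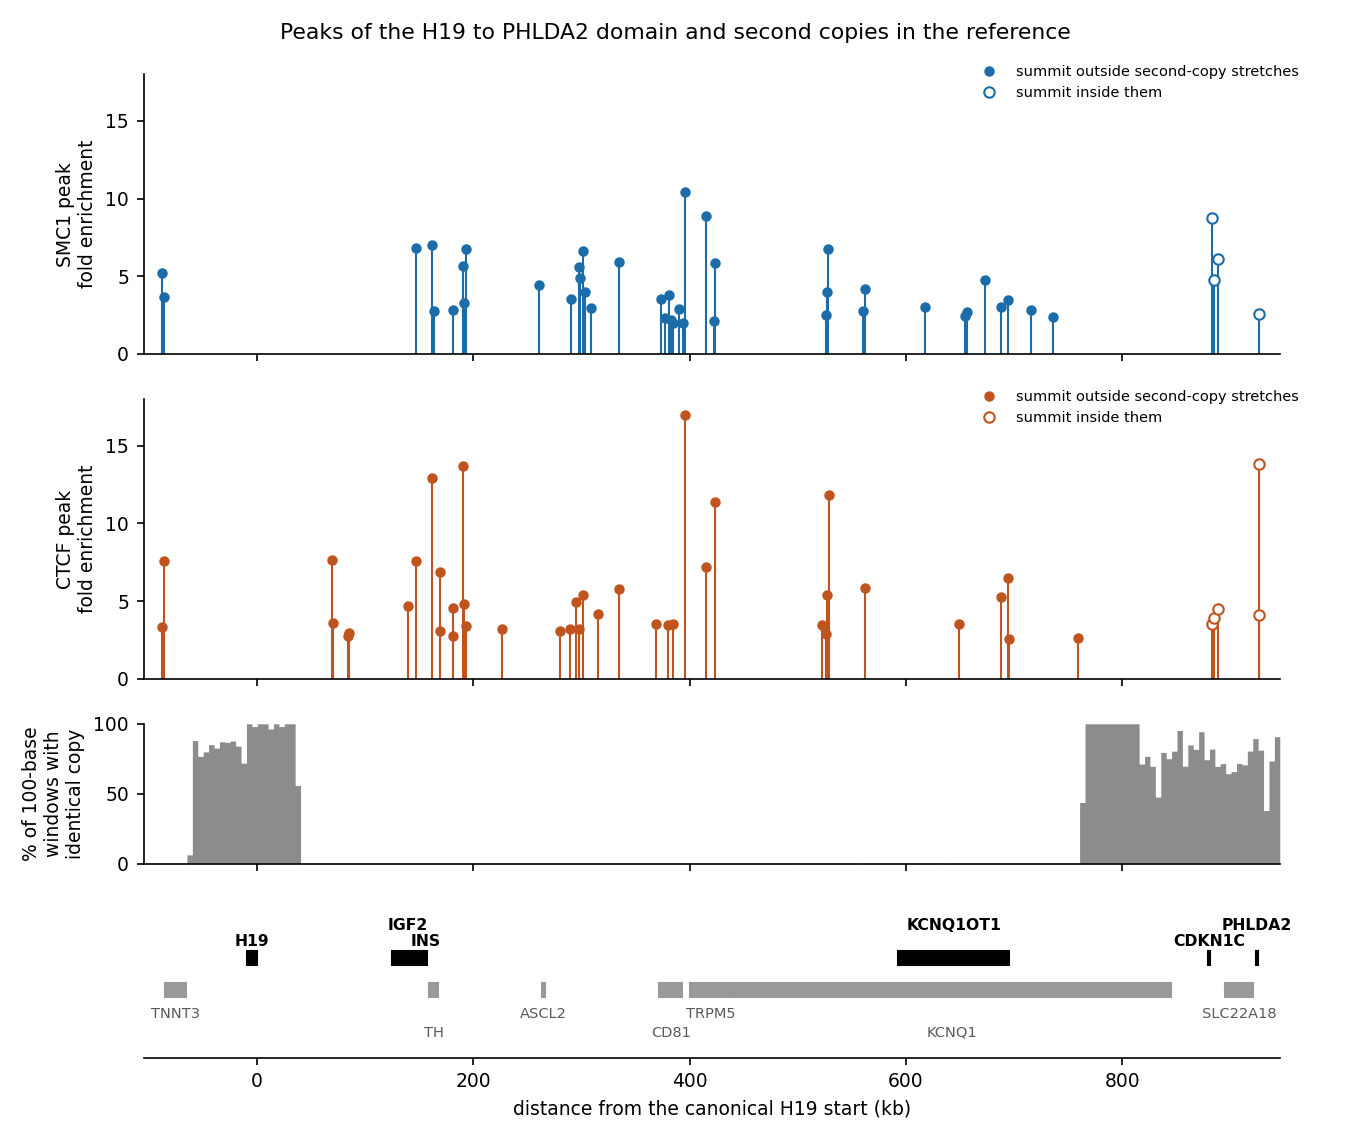
Fold enrichment of each SMC1 and CTCF peak at its summit against distance from the canonical H19 start, with the share of 100-base windows that have an identical copy on a scaffold and the genes beneath (members black). No peak stands within the grey block over H19, and 4 SMC1 and 5 CTCF peaks (open circles) stand within the block over CDKN1C and PHLDA2.

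SMC1 and CTCF peaks coincided at IGF2, TH, KCNQ1OT1 and CDKN1C, among other places. Of the SMC1 peaks, 26 of 45 overlapped a CTCF peak by at least 1 bp (57.8%, 95% Wilson interval 43.3% to 71.0%), against 47.1% of all SMC1 peaks. Of the CTCF peaks, 27 of 45 overlapped an SMC1 peak (60%, 45.5% to 73%), against 75.9% of all CTCF peaks. Peaks in a loop anchor of the list with the same label, the 3D peaks, made up 21 of 45 for SMC1 (46.7%, 32.9% to 60.9%) against 22% of all SMC1 peaks, and 25 of 45 for CTCF (55.6%, 41.2% to 69.1%) against 55.3%. With the loop lists exchanged the shares were 64.4% for SMC1, against 51.2% of all SMC1 peaks, and 44.4% for CTCF, against 28% of all CTCF peaks. The distance of the SMC1 share from the whole list therefore depends on the label of the loop list, and is smaller on the exchanged lists. The numbers of 3D peaks that the study tabulates for both targets go with the exchanged lists. The shares by label, 46.7% and 55.6%, are therefore not to be read as shares of the study's 3D peaks. On those lists the SMC1 interval of 49.8% to 76.8% covered the share of all SMC1 peaks. The CTCF interval of 30.9% to 58.8% did not cover the share of all CTCF peaks. Motif sites within 50 bp of the summit were found for 13 of 45 SMC1 peaks (28.9%, 17.7% to 43.4%) against 12.3% of all, and for 14 of 45 CTCF peaks (31.1%, 19.5% to 45.7%) against 19.5% of all. These intervals cover counting error only, and neighbouring peaks are not independent. Genome-wide, windows 1000 bp from the summits held a motif site for 5.42% of SMC1 and 5.59% of CTCF peaks. Such windows were not counted for the domain alone.

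Many peak edges stood at DpnII cut sites. An edge within 5 bp of a GATC was found for 12 of 45 SMC1 peaks of the domain (26.7%, against 49.4% of all SMC1 peaks) and for 27 of 45 CTCF peaks (60%, against 69.3% of all CTCF peaks). At points 1000 bp outside the edges the genome-wide shares were 3.91% and 4.05%. Both CTCF peaks at the KCNQ1OT1 start and both at PHLDA2 had such an edge, while neither overlapping peak at IGF2 (chr11:2150489-2152238 and chr11:2150946-2152328) nor the pair at CDKN1C did. An edge at a cut site is the border of a restriction fragment.

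**Figure D4:**
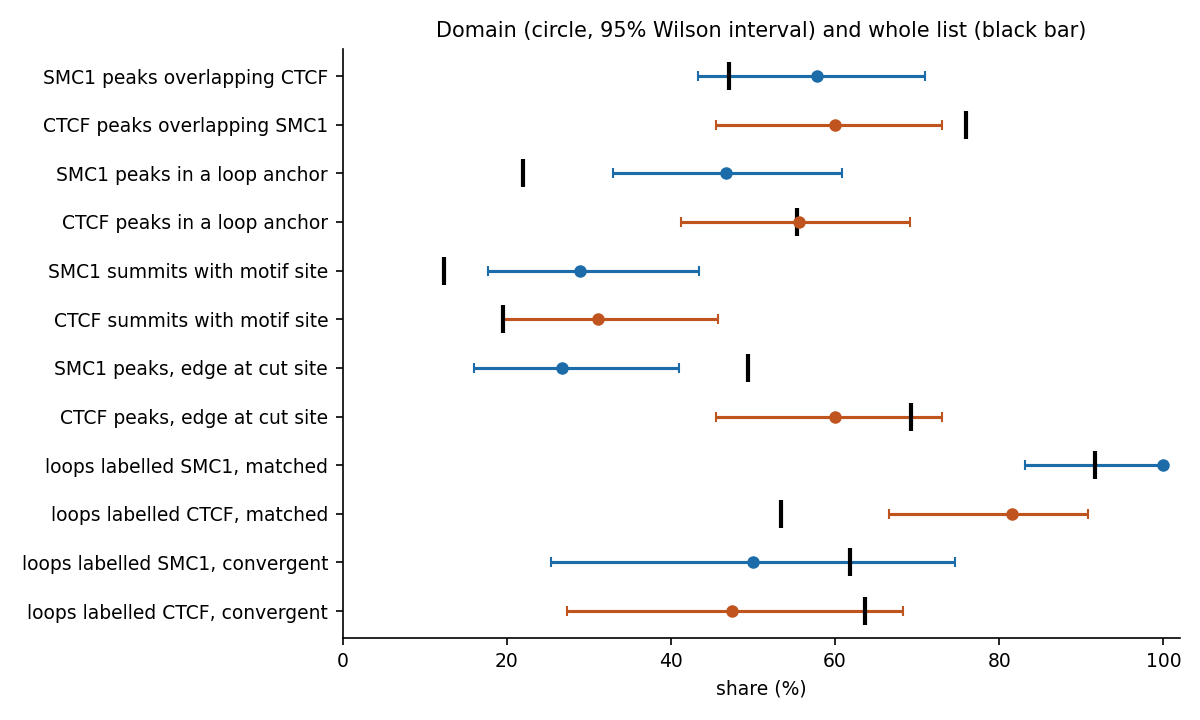
Share of the domain's peaks or loops with each property (circles, bars give 95% Wilson intervals) and the share over the whole list (black marks), in percent. Loop anchors are those of the list with the same label: for SMC1 the circle lies at 46.7% and the mark at 22%, and with the lists exchanged they would lie at 64.4% and 51.2%. For SMC1 edges at a cut site they lie at 26.7% and 49.4%.

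The loops of the domain gathered in its middle, between TH and the KCNQ1OT1 start. Counted over the loops with both anchors in the window (16 labelled SMC1 and 31 labelled CTCF) and divided at the TH start (chr11:2171815), 0 loops of either list lay within the H19 and IGF2 side. Loops that ended there from outside the window, such as the one to IGF2, are not in this count. Over the whole genome 0 loop anchors of either list were centred in stretches with a second copy. Such stretches hold H19 with its control region and, in blocks, the window from chr11:2767814 on. Their part in where the loops lay was not tested. On the KCNQ1OT1 side there were 14 under the SMC1 label and 29 under the CTCF label. Across the division there were 2 in each, both from the bin chr11:2165001-2170000 in TH to the TRPM5 bins chr11:2415001-2420000 and chr11:2420001-2425000. These loops spanned 250 and 255 kb, with 17 and 12 read pairs under the SMC1 label and 16 and 17 under the CTCF label, 4.77 to 9.09 times the expected number. Peaks of both proteins at chr11:2419394-2421590 cross the border of those TRPM5 bins, so the 2 loops of a list do not end at separate sites.

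The loop with the most read pairs in both lists ran over 105 kb from chr11:2425001-2430000 in TRPM5 to chr11:2530001-2535000 in KCNQ1. Under the SMC1 label it held 63 read pairs (4.26 times the expected number), and under the CTCF label 127 (8.54 times). Its left anchor carried a plus-strand site of 20.1 bits and its right anchor a minus-strand site of 19.2 bits, so that the best motifs of the anchors faced each other. They are shown in the direction of the motif.
chr11:2428376-2428394, plus strand: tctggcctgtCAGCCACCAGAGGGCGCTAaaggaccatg
chr11:2531554-2531572, minus strand: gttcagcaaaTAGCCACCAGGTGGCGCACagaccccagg

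The same KCNQ1 anchor also held a plus-strand site of 16.1 bits (chr11:2532950-2532968) under the strongest CTCF peak of the domain. It was the left anchor of the loop to the KCNQ1OT1 start, whose CTCF peaks held a single site of at least 10 bits, on the minus strand at 10.1 bits. Sites outside CTCF peaks, of which the 3 kb on either side of the start hold others, were not used for orientation. Scored by the best site of each anchor that loop counted as tandem, and scored by the plus-strand site it would count as convergent. The loop of 105 kb from TRPM5 to the same anchor changes the other way. It was convergent by its best sites and would count as tandem by that plus-strand site.

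The busiest anchor of both lists was chr11:2415001-2420000 in TRPM5, with 5 loops under the SMC1 label and 14 under the CTCF label. Next to it chr11:2420001-2425000 had 4 and 6 loops. The SMC1 and CTCF peaks at chr11:2419394-2421590 cross the border between these bins. Several left anchors, such as chr11:2165001-2170000, had a loop to both bins, so the bins are not separate sites. The KCNQ1 anchor chr11:2530001-2535000 had 3 and 6. In the list labelled SMC1 the anchor chr11:2400001-2405000 at TSSC4 had 3 loops as well, among them the next most populated loops of that list, which ran from bins in CD81, the gene of a membrane protein of B-cells, and from chr11:2370001-2375000 to TSSC4 with 39, 36 and 28 read pairs. In the list labelled CTCF the next most populated loops ran from chr11:1835001-1840000 and from LSP1 to the bin of the TNNT3 start (40 and 38 read pairs), from TSPAN32 and C11orf21 to TRPM5 (39) and from TRPM5 to chr11:2525001-2530000 (38).

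**Figure D5:**
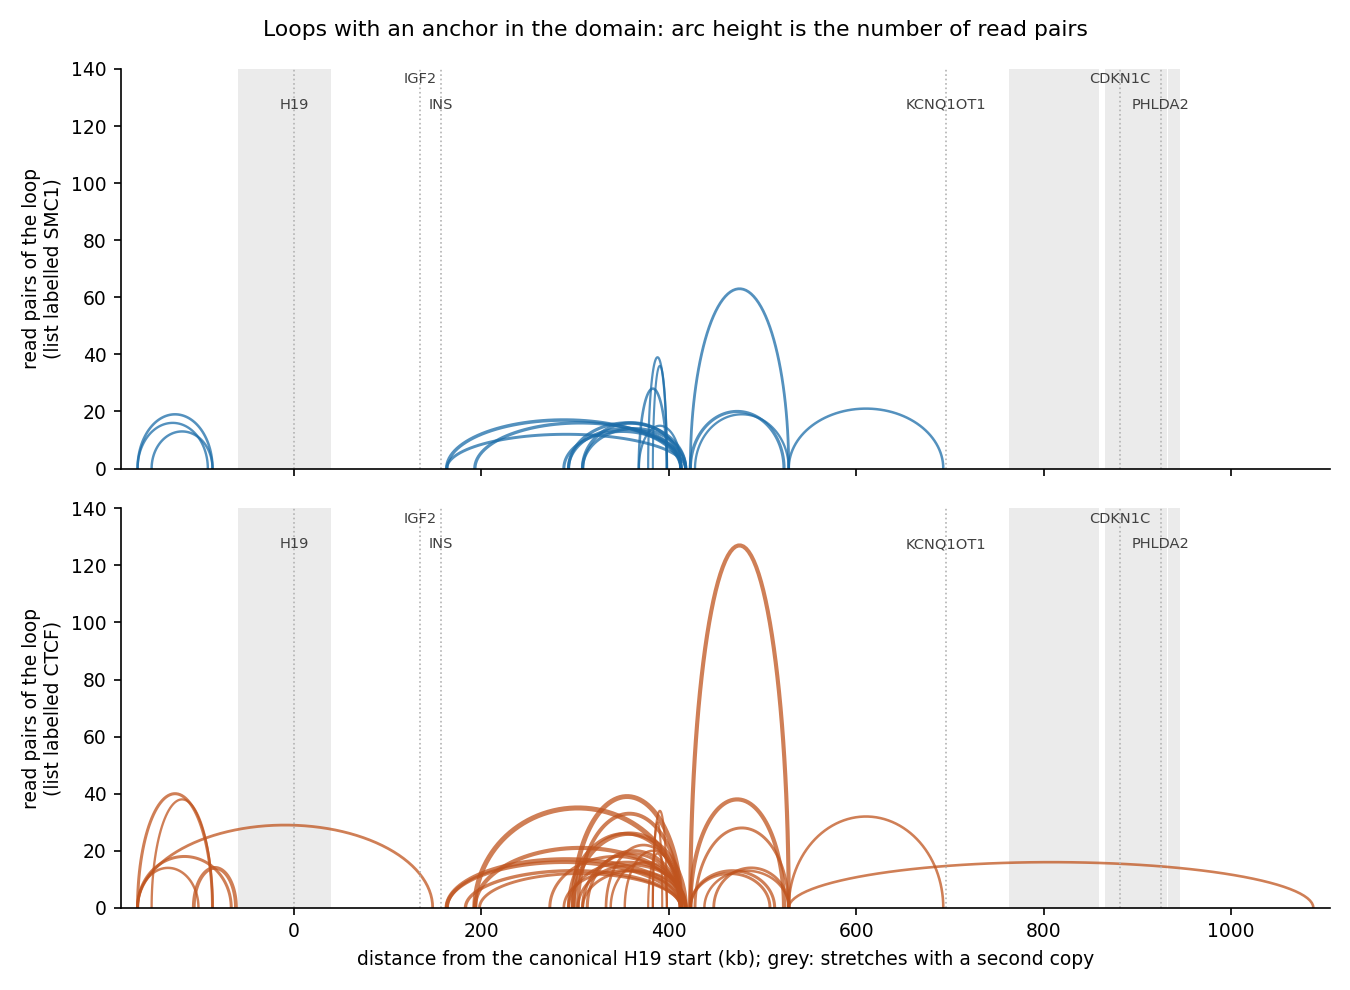
Loops with an anchor in the domain, drawn as arcs between the middles of their 5 kb anchors against distance from the canonical H19 start, with the number of read pairs as arc height, for the list labelled SMC1 (top) and the list labelled CTCF (bottom). Arcs gather between INS and KCNQ1OT1, the highest holds 63 and 127 read pairs, and no arc ends in the grey stretches with a second copy.

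Most loops of the domain were present in both lists. All 19 loops labelled SMC1 (100%, 83.2% to 100%, against 91.7% of the whole list) and 31 of 38 labelled CTCF (81.6%, 66.6% to 90.8%, against 53.4%) had a match within 15 kb at each anchor. The 7 loops without a match included those to the IGF2 anchor and to OSBPL5. The median loop held 16 read pairs under the SMC1 label and 19 under the CTCF label, and over the whole lists it held 21 and 23. The median ratio to the expected number was 4.26 and 4.75, against 4.0 and 4.03. Where both anchors had a motif site, 6 of 12 loops labelled SMC1 (50%, 25.4% to 74.6%, against 61.8%) and 9 of 19 labelled CTCF (47.4%, 27.3% to 68.3%, against 63.7%) were convergent. Loops to adjacent bins that share a peak were counted separately. By the best site of each anchor, the convergent loops labelled SMC1 were those from TH to TRPM5, from TRPM5 to KCNQ1 and from chr11:1835001-1840000 and LSP1 to TNNT3.

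At the gene starts, 2 of 6 members had an SMC1 peak within 1 kb of a start (IGF2 and KCNQ1OT1), against 34.7% of 62051 genes (entries with the same name and start were counted as 1), and 2 of 6 had a CTCF peak (KCNQ1OT1 and PHLDA2), against 25%. KCNQ1OT1 was the only member with both. The counts of members took the nearest edge of a peak, and IGF2 counted by that edge only. Of the 20 other genes of the domain, of which LSP1, NAP1L4 and CARS1 start just outside the window, 8 had an SMC1 peak and 8 a CTCF peak within 1 kb of a start. These were the same 8 genes for both proteins, namely TNNT3, LSP1, TH, TSPAN32, CD81, TSSC4, SLC22A18AS and C11orf21. The share of all genes with peaks of both proteins at a start was not counted. Over the whole list 75.9% of CTCF peaks overlapped an SMC1 peak. KCNQ1, the potassium channel gene that hosts KCNQ1OT1, had neither at its starts, although its introns held the strongest CTCF peak. Among genes whose start lay in a stretch with a second copy anywhere in the genome, 1.25% of 1285 had an SMC1 peak within 1 kb of a start and 1.25% a CTCF peak, against 35.4% and 25.5% of the others, and H19, CDKN1C and PHLDA2 were in that class.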

How the data were processed

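The authors aligned reads of SMC1 FA-EGS HiChIP and CTCF FA-HiChIP to hg38, filtered them by mapping quality, removed duplicates, pooled both replicates and called peaks (MACS3 3.0.1 and bcl2fastq 2.17 per the submitters' processing notes). The deposited fold enrichment is a ratio, summit signal over a local background taken from the library itself, and the deposited significance is the −log10 of the q-value. For loops the deposited values are an unnormalized count of read pairs for 2 bins of 5 kb and, as a score, the count expected under a MAPS regression. The false discovery rate, a q-value that the authors also deposited, was not used.

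Peaks and loops were placed by summit and anchor. Distances to a gene start are from the summit, and counts of members with a peak near a start used the nearest peak edge. Scaffolds were aligned to their own chromosomes with minimap2 2.31-r1302 (at least 10 kb and 99% identity), and 100-base windows with an identical copy on a chromosome 11 scaffold were counted. The CTCF motif came from expectation maximization on 2997 summits and was tested on simulated data. Annotation was GENCODE release 44, and intervals are 95% Wilson intervals. Python 3.11.15, NumPy 2.4.6, pandas 2.3.3 and pysam 0.24.0 were used. Named regions are all peaks and loops at the members, the 3 most significant peaks, the 5 loops with the most read pairs and the 3 anchors with the most loops of each list. Members and lists were chosen with earlier results of these data known. OSBPL5, SYT8 and TNNI2 are named as loop ends after their values were seen, as are the H19 stretch upstream of the shared start, the search for second copies and the count of cut sites.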

Additional observations from a re-analysis of the deposited data

How the results depend on the processing

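No paired analysis was possible because each target's lists pool both replicates. The lists give no depth per replicate, the intervals cover counting error only, and the part of second copies in the counts at H19, CDKN1C and PHLDA2 was not tested. Of 76 alternatives 52 left the value within its interval or within 1.5 times the count, and 24 moved it. With the minimum −log10 q-value raised to 10 the domain kept 29 SMC1 and 25 CTCF peaks. Of those CTCF peaks 72.0% lay in an anchor of the list labelled CTCF. Then 1 CTCF peak remained within 3 kb of the KCNQ1OT1 start, as it did at a minimum of 5. Within 10 kb of that start there were 2 SMC1 peaks. Overlap by at least 50% of each peak held for 37.8% of both peak sets. At least 20 read pairs left 6 loops labelled SMC1 and 18 labelled CTCF. With the loop lists exchanged, chosen after seeing the data, SMC1 had 38 loops and CTCF 19, and 64.4% of SMC1 peaks were 3D peaks. Loops labelled CTCF matched for 42.1% with no tolerance and 63.2% with 5 kb. Divided at ASCL2, 6 loops labelled CTCF crossed. Motif sites lay at 53.3% of SMC1 and 57.8% of CTCF summits at a minimum of 7 bits and at 15.6% of both at 13. Within 5 kb of a start, by the nearest peak edge, 5 members had an SMC1 peak and 5 a CTCF peak. Within 1 kb of the canonical start 1 member had an SMC1 peak and 5 other genes a CTCF peak. The count of 0 in the H19 control region was the same in each stretch tried. Without the stretches that have a second copy, also chosen after seeing the data, 41 SMC1 and 40 CTCF peaks remained, of which 53.7% and 57.5% overlapped the other target.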
